A study of Mus musculus with 8 samples.

Results

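Transcripts of 10 genes of the NRF2 antioxidant system were followed in the livers of mice with concanavalin A hepatitis: Nfe2l2, Keap1, Osgin1, Hmox1, Nqo1, Gclc, Gclm, Srxn1, Txnrd1 and Txnip. They are the rows with these symbols among the 21899 genes of the deposited table, and each matched 1 row. RNA was sequenced from 8 liver samples of mice given ConA (concanavalin A), a jack bean lectin whose T cell activation injures the liver, with 8 h as the labelled time. One group of 4 was P2X4R-deficient and the other group of 4 was wild type (WT). P2X4R, the product of P2rx4, is a cation channel opened by extracellular ATP. Both groups had received ConA, and no untreated livers were analysed here. The labels call the genotype a P2X4R knockdown, while the series' design text writes P2X4R-/-. The sources used here do not state strain, age, sex or which part of the gene was altered. Whether the 4 libraries of a group stem from 4 animals is not stated, so p-values reflect only the spread between these samples, which may be technical.

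NRF2, the product of Nfe2l2, is a transcription factor that binds antioxidant response elements together with a small Maf protein and raises transcription of genes for glutathione, thioredoxin and quinone metabolism. KEAP1 holds NRF2 in a CUL3 ubiquitin ligase that leads to its degradation, and electrophiles and oxidants that modify KEAP1 release it. NRF2 is therefore mostly set by protein stability, and the level of its own transcript is not a measure of its activity. In liver the system protects hepatocytes from drug and inflammatory injury. TXNIP, an alpha arrestin that binds thioredoxin and limits glucose uptake, stands apart from the antioxidant targets, since its gene is known as a target of the glucose-sensing factors MondoA and ChREBP.

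Counted reads ran from 15445285 to 16604190 per library. P2rx4 itself was at 17.3 to 29.6 CPM (reads scaled to a common library total with TMM factors) across the deficient libraries against 43.8 to 62.4 CPM across the wild type, so the labelled direction held in every library while transcript remained. Hepatocyte markers were abundant throughout, with Alb at a mean of 67888 and 88865 CPM in deficient and wild-type livers. The sum over 7 hepatocyte markers was 72251 to 97074 CPM over deficient libraries against 104720 to 117350 CPM over wild-type libraries, without overlap. Most of that sum was Alb, which did not pass (adjusted p = 0.0884). All 7 estimates were below 0, with a median of -0.14, and 3 had an unadjusted p under 0.05 in edgeR (35.2% of all genes). Only Cps1 (-0.94) was called by edgeR, where 10.6% of all genes were lower. DESeq2 called 3 of the 7, where 13.9% of all genes were lower. Cps1, Alb (-0.39) and Ttr (-0.40) did not overlap between the groups, against 12.3% of all genes lower without overlap. Apoa1 was at -0.14, and the estimates of Tat, Ass1 and Hnf4a were between -0.04 and -0.03. The part of hepatocyte content in the results below was not tested.

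Osgin1, Hmox1 and Txnip fell in deficient livers, to 20.4%, 36.7% and 28.04% of the wild-type level. The other 7 did not pass the test, and 0 of 10 rose. The call was an adjusted p under 0.05 in edgeR's quasi-likelihood test over 11380 genes, at which 10.6% of all genes fell and 9.27% rose (7.41% and 15.2% when scaled by library size alone, which called the same number of members in each direction). The median log2 fold change of the 10 was -0.48, against -0.001 over all genes tested. At an unadjusted p under 0.05, which 35.2% of all genes reached, there were 5 of the 10, the 3 that fell, Txnrd1 with a lower and Srxn1 with a higher estimate. DESeq2 called 4 of the 10, all lower, where 13.9% of all genes were lower. The groups did not overlap for 4 members, all lower, against 12.3% of all genes lower without overlap. The members were chosen with results of these data known, so this count is a description.

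**Figure D1:**
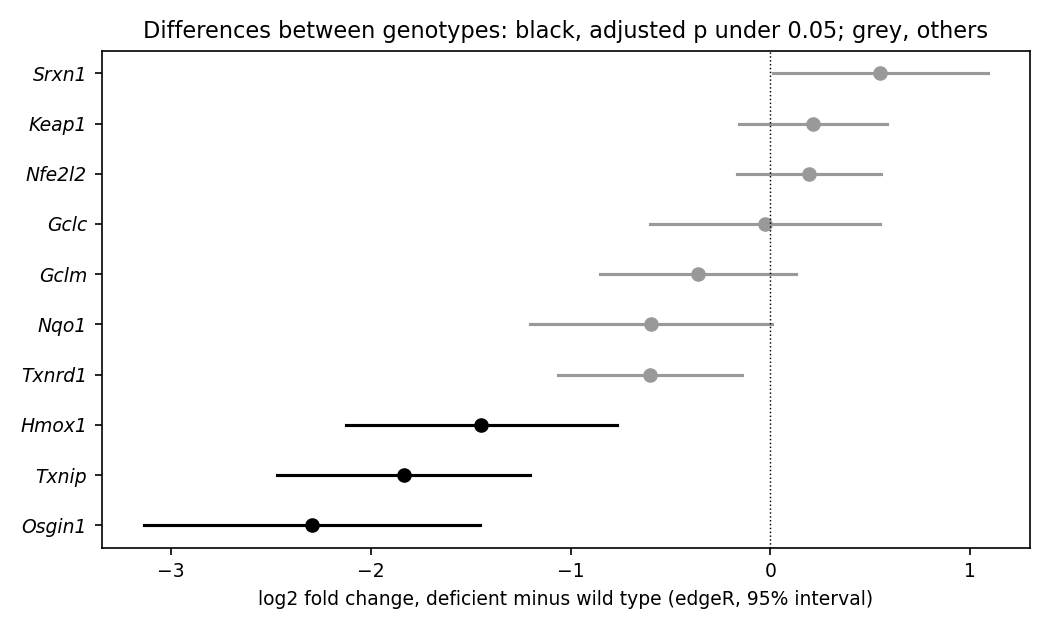
Log2 fold change of each of the 10 genes, deficient minus wild type, with its 95% interval from the edgeR fit (4 libraries per group); the dotted line marks no difference. The intervals of Osgin1, Hmox1 and Txnip (black, adjusted p under 0.05) lie below 0, as does that of Txnrd1 (grey, adjusted p = 0.0639), and that of Srxn1 (grey) lies just above 0.

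Stretches upstream of 4 of these genes are shown, which hold letters that NRF2 with small Maf proteins and ChREBP are known to bind. The stretch over the same bases at the second of 3 listed starts of Txnrd1 also held such a match and is not shown. RefSeq promoter windows of GRCm38.p6 (250 bases before to 50 after each start) were available for 8 of the 10 genes, and Hmox1 and Gclc had no entry in that table. Bases -190 to -31 from the start are printed in the gene's direction, and capitals mark the matches described below them, for Txnip with the spacer between its paired sites. They lie at chr8:119436957-119437116 on the plus strand for Osgin1, chr2:152105334-152105493 on the plus strand for Srxn1, chr3:122245367-122245526 on the plus strand for Gclm and chr3:96557767-96557926 on the plus strand for Txnip.
Osgin1: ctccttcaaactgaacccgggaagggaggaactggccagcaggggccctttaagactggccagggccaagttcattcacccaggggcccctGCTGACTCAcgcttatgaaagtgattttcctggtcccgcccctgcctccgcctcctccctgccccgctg
Srxn1: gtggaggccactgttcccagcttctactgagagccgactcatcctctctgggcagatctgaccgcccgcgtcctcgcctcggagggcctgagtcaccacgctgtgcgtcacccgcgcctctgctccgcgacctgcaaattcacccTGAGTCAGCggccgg
Gclm: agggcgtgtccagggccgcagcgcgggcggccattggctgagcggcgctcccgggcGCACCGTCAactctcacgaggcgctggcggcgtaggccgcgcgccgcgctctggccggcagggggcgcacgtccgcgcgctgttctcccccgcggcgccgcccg
Txnip: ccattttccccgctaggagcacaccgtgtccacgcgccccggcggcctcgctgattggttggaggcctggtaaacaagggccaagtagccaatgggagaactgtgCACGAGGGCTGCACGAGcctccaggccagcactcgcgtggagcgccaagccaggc

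Both strands of the whole windows were searched for TGACNNNGC, the core of the antioxidant response element, and for TGANTCAGC. The latter is a site of NRF2 with a small Maf that is as long but leaves fewer letters open. The third search was for CACGNG followed after any 5 bases by a further CACGNG, a form of the carbohydrate response element. The letters were chosen after the windows had been read. The first 2 can match the same bases, which did not occur in these windows. Among all 32851 windows of this length, 12.4% held the first, 1.19% the second and 0.0487% the third. Osgin1 held TGANTCAGC from base -99 on the opposite strand, and Srxn1 from base -45 on its own strand. Gclm held TGACNNNGC from base -134 on the opposite strand and Nfe2l2 from base -240 on its own strand. Txnrd1 held it from base -92 of the second of its 3 listed starts, and Srxn1 after its start, both on the opposite strand. Txnip held the paired CACGNG form from base -85. Keap1 and Nqo1 held none of the 3 in these windows. A match is a description of the sequence and not a measured binding site.

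Neither the regulator nor its repressor passed the test. Nfe2l2 (ENSMUSG00000015839; chromosome 2, 75505857 to 75534985, minus strand, as the table lists it without a genome build) was at 74.3, 76.7, 67.2 and 103.2 CPM in deficient libraries 1 to 4 and at 66.8, 70.9, 63.8 and 79.6 CPM in wild-type libraries 1 to 4. The groups overlapped, with deficient 4 above all others. Its log2 fold change was 0.19 (SE 0.17, edgeR adjusted p = 0.438), with a 95% interval from -0.17 to 0.55. Gm24996 overlaps Nfe2l2 on the same strand in GENCODE M21. Keap1 (ENSMUSG00000003308; chromosome 9, 21141026 to 21150657, minus strand) averaged 45.7 ± 7.57 CPM among deficient against 39.4 ± 6.23 CPM among wild-type livers (SD, n = 4). Its difference was 0.21 log2 units (SE 0.17, adjusted p = 0.399 in edgeR), with a 95% interval from -0.16 to 0.59. In the GENCODE M21 annotation Gm16754 overlaps Keap1 on the opposite strand, and since the use of strand in counting is not stated, reads of antisense partners cannot be told apart. Within a library, the Nfe2l2 to Keap1 ratio of FPKM (reads scaled to gene length and library total) was 1.501 to 2.852 in deficient and 1.71 to 2.68 in wild-type livers. An exact two-sided permutation test of the log2 ratio gave p = 0.886.

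Osgin1 had the largest difference among the 10. It encodes oxidative stress induced growth inhibitor 1, a flavoprotein whose gene responds to NRF2 (ENSMUSG00000074063; chromosome 8, 120160863 to 120172995, plus strand). Deficient libraries 1 to 4 held 42.4, 202.6, 79.0 and 151.7 CPM, and wild-type libraries 1 to 4 held 677, 503, 576 and 578 CPM. Every deficient library was below every wild-type library, and the highest deficient value was below the lowest wild-type value by more than the wild-type spread. Osgin1 fell by 2.29 log2 units (SE 0.39, adjusted p = 0.00536 in edgeR), and its 20.4% of wild type had a 95% interval of 11.4% to 36.5%. Deficient libraries differed 4.78-fold from lowest to highest, whereas wild-type libraries differed 1.35-fold. The order of expression per gene length changed with it: by FPKM, Osgin1 was second after Hmox1 in all 4 wild-type libraries, and it was second in deficient 2 and 4 but below Gclc and Srxn1 in deficient 1 and 3.

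Hmox1, the gene of haem oxygenase 1, which breaks down haem to biliverdin, iron and carbon monoxide, was the most abundant of the 10 per gene length in every library (ENSMUSG00000005413; chromosome 8, 75820249 to 75827217, plus strand). Its FPKM was 281.5 ± 108.9 in deficient and 698 ± 223 in wild-type livers (SD, n = 4). On the CPM scale deficient libraries 1 to 4 held 250.9, 726.9, 477.8 and 435.1, and wild-type libraries 1 to 4 held 1240, 853, 1870 and 1187. The groups did not overlap, although deficient 2 came close to wild type 2. Hmox1 fell by 1.45 log2 units (SE 0.31, adjusted p = 0.0114 in edgeR), and its 36.7% of wild type had a 95% interval of 22.97% to 58.7%. Hmox1 is also known as a gene of macrophages that take up red cells, so values of these cells stand beside it. The sum over 6 Kupffer cell markers was 28.2, 24.5, 26.4 and 29.9 CPM for deficient libraries 1 to 4 against 101.2, 50.5, 37.0 and 28.7 CPM for wild-type libraries 1 to 4. Wild type 1 to 3 lay above the deficient range and wild type 4 within it. Of the 6 markers, 3 fell, against 10.6% of all genes. Vsig4, Timd4 and Adgre1 averaged only 1.07, 1.11 and 1.24 CPM in deficient libraries, so most of the sum was Clec4f, Cd5l and Marco. The sum over 5 erythroid markers was 225.8 to 380.2 CPM over deficient libraries against 183.9 to 1440 CPM over the wild type. All 5 estimates were below 0, with a median of -1.13, and 4 had an unadjusted p under 0.05 in edgeR (35.2% of all genes). EdgeR called 0 of the 5, and DESeq2 called 1, where 13.9% of all genes were lower. The part of either cell type in the Hmox1 result was not tested, and in whole liver RNA fewer cells of a type and less RNA per cell cannot be told apart.

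**Figure D2:**
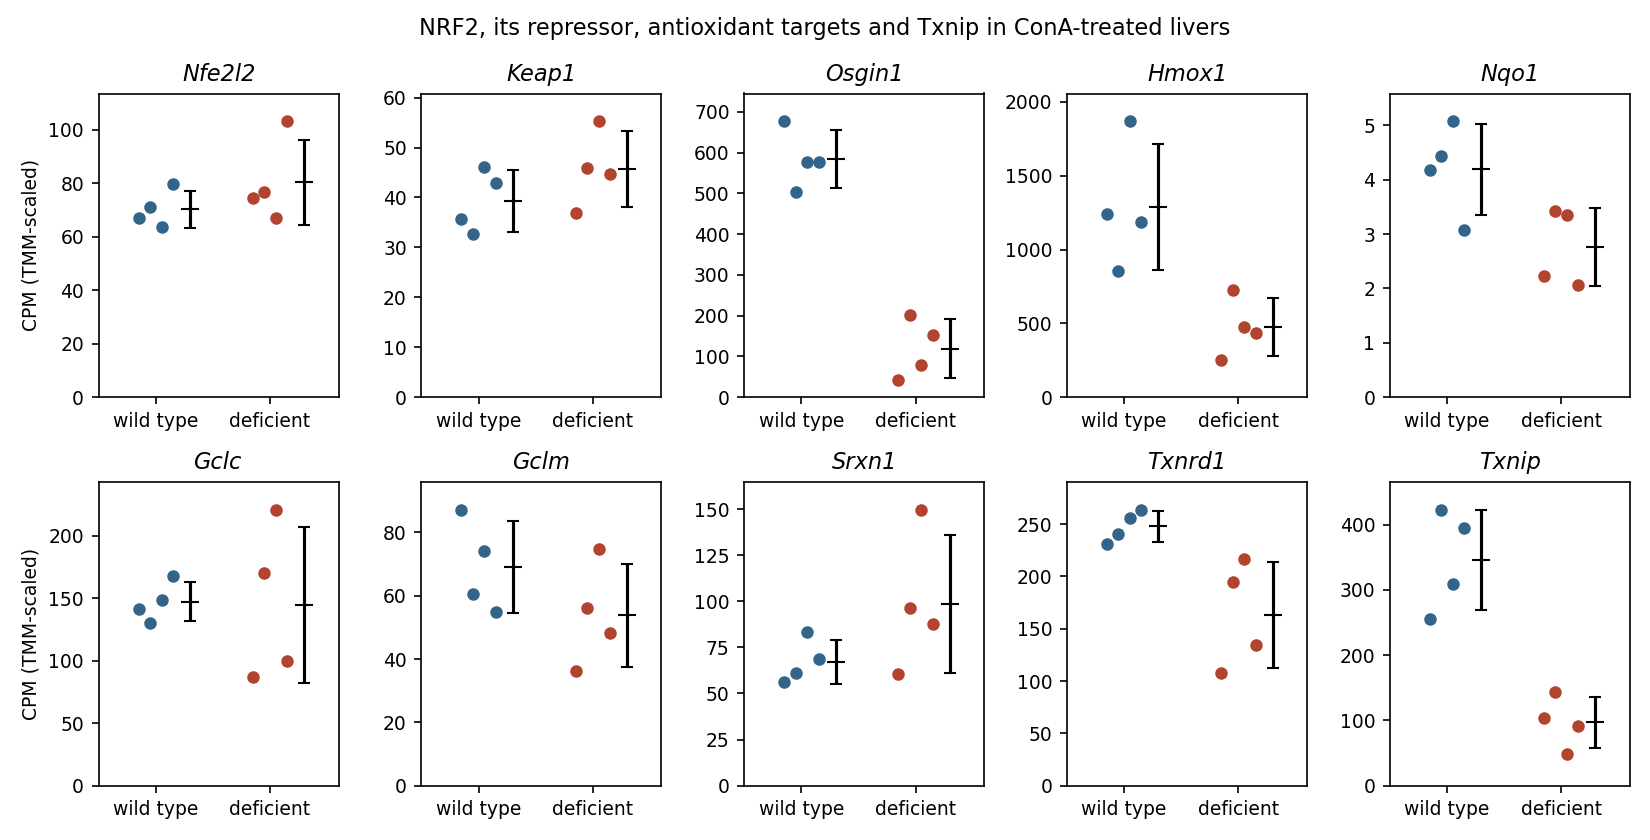
TMM-scaled CPM of each of the 10 genes in the 4 wild-type (blue) and 4 deficient (red) libraries, with mean and SD in black; each vertical axis is linear and starts at 0. Osgin1, Hmox1, Txnrd1 and Txnip do not overlap between the groups, and Gclc spreads from 87.3 to 221.1 CPM among the deficient libraries alone.

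Both subunits of glutamate-cysteine ligase, the rate-limiting enzyme of glutathione synthesis, missed the threshold. Gclc, the catalytic subunit (ENSMUSG00000032350; chromosome 9, 77661817 to 77701767, plus strand), was at 87.3, 170.5, 221.1 and 99.7 CPM in deficient libraries 1 to 4 and at 141.9, 130.4, 148.8 and 167.9 CPM in wild-type libraries 1 to 4. Deficient 1 and 4 lay below all wild-type libraries and deficient 2 and 3 above them, so the means were nearly equal. The log2 fold change was -0.03 (SE 0.26, edgeR adjusted p = 0.959) with a 95% interval from -0.60 to 0.55, and its sign changed with the scaling, to 0.12 with library size alone. Gclm, the modifier subunit (ENSMUSG00000028124; chromosome 3, 122039206 to 122064381, plus strand), was at 36.3, 56.1, 74.8 and 48.1 CPM for deficient libraries 1 to 4, and at 87.2, 60.4, 74.2 and 54.8 CPM for wild-type libraries 1 to 4. The groups overlapped, and the log2 fold change was -0.36 (SE 0.22, edgeR adjusted p = 0.278). Per gene length, Gclm stood at 0.197 to 0.289 of Gclc in deficient and 0.195 to 0.368 in wild-type livers (exact two-sided permutation p = 0.314). In GENCODE M21 Gclm overlaps Gm17494 on the opposite and Gm6061 on the same strand.

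Nqo1, the gene of NAD(P)H quinone dehydrogenase 1 and a standard readout of NRF2 in many cell types, had the fewest reads of the 10 in every library, between 36 and 77 (ENSMUSG00000003849; chromosome 8, 108114857 to 108129838, minus strand). Deficient libraries 1 to 4 held 2.23, 3.42, 3.36 and 2.07 CPM and wild-type libraries 1 to 4 held 4.18, 4.43, 5.08 and 3.08 CPM. Only wild type 4 lay within the deficient range. The log2 fold change of -0.60 (SE 0.28) had an edgeR adjusted p of 0.148 and a 95% interval from -1.20 to 0.01.

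The estimates of the thioredoxin branch lay on both sides of 0, and neither gene passed the test. Txnrd1, cytosolic thioredoxin reductase, which returns oxidised thioredoxin to its active form (ENSMUSG00000020250; chromosome 10, 82669785 to 82733546, plus strand), was at 107.3, 194.3, 216.3 and 134.8 CPM in deficient libraries 1 to 4. Wild-type libraries 1 to 4 held 230.6, 240.5, 256.0 and 263.8 CPM, a spread of 6.05% of their mean. All 4 deficient libraries were lower, and the log2 fold change was -0.60 (SE 0.21, edgeR adjusted p = 0.0639), with a 95% interval from -1.06 to -0.14. It passed with DESeq2 (adjusted p = 0.0299) and in edgeR without deficient 3 (-0.77, adjusted p = 0.0442, where 5.61% were lower). Txnrd1 overlaps Eid3 on the same strand, which held 7 reads over the deficient and 19 over the wild-type libraries, and the antisense genes Gm38560 and Gm47073 in GENCODE M21. Srxn1, sulfiredoxin, which repairs overoxidised peroxiredoxins (ENSMUSG00000032802; chromosome 2, 151947436 to 151953296, plus strand), had its estimate in the other direction. Deficient libraries 1 to 4 held 60.5, 96.3, 149.8 and 88.0 CPM and wild-type libraries 1 to 4 held 56.1, 61.0, 83.4 and 68.7 CPM. Deficient 1 lay among the wild-type libraries and the other 3 above them. The log2 fold change was 0.55 (SE 0.25, edgeR adjusted p = 0.132), with a 95% interval from 0.02 to 1.09, and 0.73 without deficient 1 (edgeR adjusted p = 0.0458, where 6.09% of all genes were higher).

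Txnip had the smallest p of the 10 (ENSMUSG00000038393; chromosome 3, 96465273 to 96469199, plus strand). Deficient libraries 1 to 4 held 104.3, 143.2, 48.8 and 91.6 CPM, and wild-type libraries 1 to 4 held 256.0, 423, 310 and 395 CPM. Every deficient library was below every wild-type library, with deficient 3 the lowest. Txnip fell by 1.83 log2 units (SE 0.29, adjusted p = 0.00474 in edgeR), and its 28.04% of wild type had a 95% interval of 18.1% to 43.5%. Gm15441 lies across Txnip on the opposite strand in GENCODE M21, is not among the genes of the table, and its reads could be counted with Txnip if strand was not used. Txn1, the gene of the cytosolic thioredoxin that TXNIP binds, averaged 210.4 ± 28.6 CPM among deficient against 197.7 ± 16.2 CPM among wild-type livers (SD, n = 4, adjusted p = 0.711 in edgeR). Within a library, the Txnip to Txn1 ratio of FPKM was 0.156, 0.242, 0.0932 and 0.128 in deficient libraries 1 to 4 and 0.400, 0.687, 0.568 and 0.720 in wild-type libraries 1 to 4. The groups did not overlap, and the log2 ratio was lower by 1.99 in deficient livers, from -0.79 ± 0.39 to -2.78 ± 0.58 (SD, n = 4). Its exact two-sided permutation p was 0.0286, the smallest possible with 4 against 4 libraries, and 0.0857 when adjusted over the 3 ratios tested. The ratio does not depend on how libraries are scaled to each other.

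**Figure D3:**
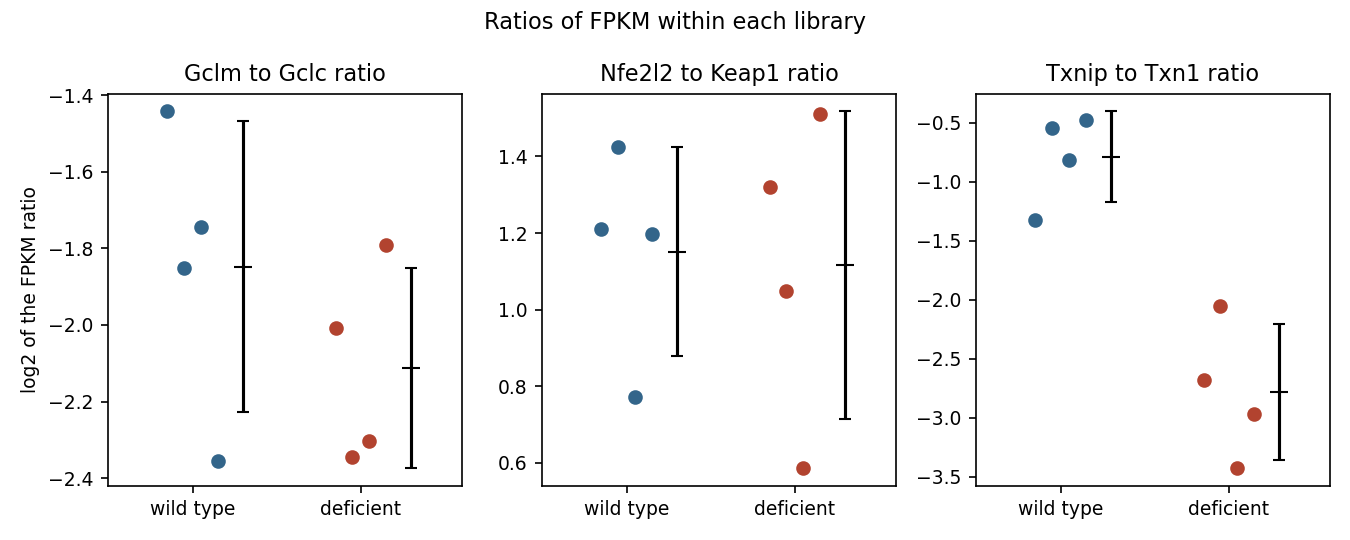
Log2 of the FPKM ratio of 2 genes within each library for Gclm to Gclc, Nfe2l2 to Keap1 and Txnip to Txn1, in 4 wild-type (blue) and 4 deficient (red) libraries, with mean and SD in black; the vertical axes differ and do not start at 0. Only the Txnip to Txn1 ratio separates the groups, with 0.0932 to 0.242 in deficient and 0.400 to 0.720 in wild-type libraries on the linear scale.

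The libraries did not rank alike across the 10 genes. Deficient 1 was the lowest deficient library for 7 of the 10, among them Osgin1, Hmox1, Gclc, Gclm, Srxn1 and Txnrd1, whereas deficient 3 was the highest for 5 and the lowest for Txnip and Nfe2l2. The coefficient of variation was larger in deficient than in wild-type libraries for each of the 10 genes, from 16.6% against 15.8% for Keap1 to 60.5% against 12.2% for Osgin1. This difference in spread was not tested, and the share of all genes that show it was not counted. The same libraries enter each of the 10 genes, so their spreads are not independent.

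Genes around these 10 were taken from 8 lists, chosen like the members with earlier results of these data known. Of 109 genes, 104 passed the filter on low counts, 19 fell and 4 rose, or 18.3% and 3.85% against 10.6% and 9.27% of all genes. With library size alone 15 fell and 7 rose, against 7.41% and 15.2% of all genes, and in limma on log2(FPKM + 1) 14 fell and 7 rose, against 8.43% and 16.6%. With deficient 1, deficient 3 or wild type 3 left out, 11, 11 and 9 fell, where 6.81%, 5.61% and 4.54% of all genes were lower. With deficient 3, deficient 4, wild type 3 or wild type 1 left out, 1, 1, 0 and 7 rose, where 4.97%, 6.42%, 3.91% and 7.29% of all genes were higher. Without deficient 4 or wild type 2, 8.74% and 8.54% of all genes were lower, and without deficient 2, 9.32% were higher. The 104 genes had a median log2 fold change of -0.18, and 81 of them did not pass. The counts of each list below are to be read against the same 10.6% lower and 9.27% higher of all genes.

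**Figure D4:**
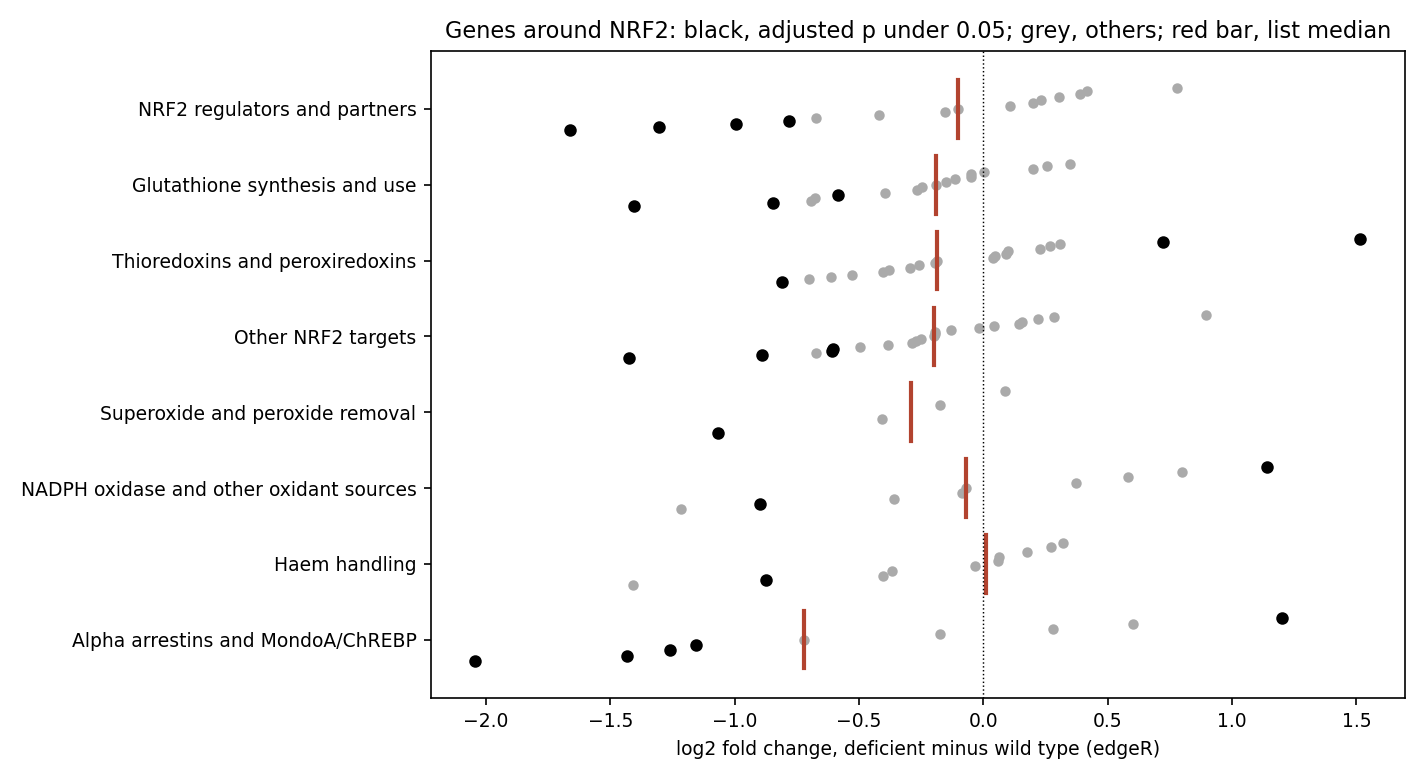
Log2 fold change of the 104 tested genes of the 8 lists, 1 point per gene, black where the edgeR adjusted p was under 0.05 and grey elsewhere; the red bar is the list median and the dotted line the median of all genes. The 19 genes that fell are spread over all 8 lists, and the list of alpha arrestins with MondoA and ChREBP has the lowest median, at -0.72.

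Among NRF2 regulators and partners, 4 of 15 tested genes fell and 0 rose, with a median of -0.10 that was 0.04 with library size alone. Bach1, the repressor that competes with NRF2 at the Hmox1 enhancers until haem removes it, was at 30.3, 106.5, 54.5 and 65.2 CPM for deficient libraries 1 to 4, and at 113.8, 161.1, 198.5 and 159.3 CPM for wild-type libraries 1 to 4. It fell by 1.30 (SE 0.32, edgeR adjusted p = 0.0172) without overlap, and missed the threshold once deficient 3 (adjusted p = 0.0533) or wild type 3 (0.0534) was left out. Its relative Bach2 fell by 1.66 (SE 0.29), with a mean of 1.92 ± 0.56 CPM in deficient against 6.09 ± 1.62 CPM in wild-type libraries (SD, n = 4). Mafk, a small Maf partner of both NRF2 and BACH1, fell by 0.996 (SE 0.296), with overlapping groups. Fbxw11, an F-box protein that can mark NRF2 for degradation without KEAP1, fell by 0.78 (SE 0.21). Leaving out deficient 1 or 3 or wild type 1, 3 or 4 ended the call of Mafk (adjusted p = 0.0593, 0.0975, 0.0727, 0.0854 and 0.0659). That of Fbxw11 ended with deficient 1, 3 or 4 or wild type 3 left out (adjusted p = 0.0537, 0.0593, 0.0538 and 0.0808). In this list 2 fell once deficient 1 was left out, and 1 with deficient 3 or wild type 3 left out.

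Of 17 glutathione genes tested, 3 fell and 0 rose, with a median of -0.19. Cth, cystathionine gamma-lyase, which makes cysteine for glutathione, fell by 1.40 (SE 0.36), with a mean of 63.4 ± 34.0 CPM in deficient against 167.7 ± 59.1 CPM in wild-type libraries (SD, n = 4). Gpx1, the main cytosolic glutathione peroxidase, fell by 0.58 (SE 0.16), with 1237.1 to 1399.6 CPM over deficient libraries against 1570.5 to 2248 CPM over the wild type. Chac1, which degrades glutathione, fell by 0.85 (SE 0.24). Leaving out wild type 3 ended the call of Cth (adjusted p = 0.0647). Leaving out deficient 1 or 3 or wild type 3 ended the call of Gpx1 (adjusted p = 0.0557, 0.0644 and 0.0831), as did scaling by library size alone (adjusted p = 0.0587) and limma on log2(FPKM + 1) (adjusted p = 0.0582). Leaving out deficient 1, 3 or 4 or wild type 2 or 3 ended the call of Chac1 (adjusted p = 0.0691, 0.0853, 0.0714, 0.0836 and 0.054). With deficient 1 or deficient 3 left out 1 of the list fell, with wild type 3 left out 0 fell, and with wild type 1 left out 1 rose.

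Of 19 thioredoxin and peroxiredoxin genes, 1 fell and 2 rose, against 10.6% and 9.27% of all genes, with a median of -0.19. Prdx6, a peroxiredoxin that reduces lipid peroxides, fell by 0.81 (SE 0.18), with a mean of 143.8 ± 23.2 CPM in deficient against 252.1 ± 45.0 CPM in wild-type libraries (SD, n = 4), and passed under every alternative run. Nxn, nucleoredoxin, rose by 1.52 (SE 0.38) at a low level, from 1.06 ± 0.47 to 3.03 ± 0.75 CPM (SD, n = 4). Sesn2, a stress-responsive sestrin, rose by 0.72 (SE 0.21). Leaving out wild type 3 ended the call of Nxn (adjusted p = 0.0614), and its rise was 0.60 in limma on log2(FPKM + 1), whose pseudocount lowers the folds of weakly expressed genes. Leaving out deficient 2, 3 or 4 or wild type 1 or 3 ended the call of Sesn2 (adjusted p = 0.0633, 0.068, 0.0564, 0.0755 and 0.0878). With deficient 2, 3 or 4 or wild type 1 left out 1 of the list rose, with wild type 3 left out 0 rose, and with wild type 2 left out 2 fell.

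Of 21 other known NRF2 targets, 4 fell and 0 rose, with a median of -0.20. Abcc2, the canalicular export pump for glutathione conjugates and bilirubin, fell by 1.43 (SE 0.26), with a mean of 53.4 ± 16.6 CPM in deficient against 143.5 ± 43.5 CPM in wild-type libraries (SD, n = 4). Me1, malic enzyme, which supplies NADPH, fell by 0.89 (SE 0.19). Both passed under every alternative run. Cbr1, carbonyl reductase, and Gstm1, a glutathione transferase, fell by 0.61 (SE 0.16) and 0.60 (SE 0.18). Leaving out deficient 1 or wild type 3 ended the call of Cbr1 (adjusted p = 0.0547 and 0.0591), as did library size alone (0.0688) and limma on log2(FPKM + 1) (0.0701). Among the fits with a library left out, Gstm1 was called only without deficient 2, and its call also ended with library size alone (adjusted p = 0.0837), no expression filter (0.0543) and limma on log2(FPKM + 1) (0.0868). Gstm1 belongs to a family of similar genes whose reads the counting could have split. With deficient 1 or wild type 3 left out 2 of the list fell, as with library size alone and in limma on FPKM.

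Cat, catalase, was the 1 of 4 removal genes that fell, by 1.07 (SE 0.23), with 430.5 to 776.1 CPM over deficient libraries against 965.9 to 1663 CPM over the wild type. It passed under every alternative run. Of 9 oxidant sources, 1 fell and 1 rose, near the 10.6% and 9.27% of all genes. Nos2, the inducible nitric oxide synthase, fell by 0.90 (SE 0.27) and Ncf1, a cytosolic subunit of the phagocyte NADPH oxidase, rose by 1.14 (SE 0.37), both with overlapping groups. Ncf1 is a phagocyte gene, and the sum over 6 neutrophil markers was 76.8 to 153.6 CPM over deficient libraries against 22.0 to 88.1 CPM over the wild type, with 2 of 6 higher. Its part in the Ncf1 result was not tested. With a library left out, Ncf1 was called where that library was deficient 2 or wild type 1, and Nos2 where it was deficient 2 or wild type 2. The call of Nos2 also ended with library size alone (adjusted p = 0.0657) and in limma on log2(FPKM + 1) (0.0972). Without wild type 1 the number that rose was 4 and the list median moved from -0.07 to 0.36. It was 0.06 with library size alone.

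Of 10 haem genes tested, 1 fell, Fech, ferrochelatase, which inserts iron into haem, by 0.88 (SE 0.19), from 89.4 ± 13.2 to 48.74 ± 11.02 CPM (SD, n = 4). Its call held under every alternative run, and 2 of the list fell without deficient 4. The median was 0.01, with -0.005 under no expression filter, 0.16 with library size alone and 0.11 in limma on log2(FPKM + 1), and 1 gene rose under each of the last 2.

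The list around Txnip, of alpha arrestins, MondoA and ChREBP genes and glucose transporters, had 4 of 9 genes lower and 1 higher, with a median of -0.72. Mlxipl, the gene of ChREBP, fell by 1.43 (SE 0.26), with 45.5, 55.97, 42.1 and 71.1 CPM for deficient libraries 1 to 4 against 231.1, 101.3, 120.3 and 126.1 CPM for wild-type libraries 1 to 4, without overlap. Slc2a2, the liver glucose transporter GLUT2, fell by 2.04 (SE 0.37), with 17.2, 52.4, 18.7 and 57.2 CPM for deficient libraries 1 to 4 against 128.1, 137.4, 198.1 and 135.7 CPM for wild-type libraries 1 to 4, again without overlap. Arrdc4, an alpha arrestin close to TXNIP and known as another target of MondoA and ChREBP, fell by 1.16 (SE 0.27), with a mean of 193.7 ± 84.2 CPM in deficient against 431.9 ± 77.2 CPM in wild-type libraries (SD, n = 4). These 3 passed under every alternative run. Mlxip, the gene of MondoA, and Mlx did not pass, at -0.17 and 0.28 (edgeR adjusted p = 0.74 and 0.237). Arrdc3, named after its value was seen, fell by 1.26 (SE 0.37, edgeR adjusted p = 0.0341), but not past the threshold with deficient 1 or 3 or wild type 1, 3 or 4 left out (highest adjusted p = 0.0791). Arrdc2 rose by 1.20 (SE 0.33), with a mean of 10.2 ± 1.23 CPM in deficient against 4.41 ± 2.37 CPM in wild-type libraries (SD, n = 4). Leaving out deficient 3 or 4 or wild type 3 ended its call (adjusted p = 0.0594, 0.0671 and 0.0786). The median was -1.09 without deficient 2.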

How the data were processed

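Poly(A) RNA of 8 liver samples was sequenced on an Illumina NovaSeq, per the labels' protocols. The authors deposited raw read counts and FPKM per gene and library, per the file headers. Recomputing FPKM from the counts and gene lengths gave values within 7e-05% of those deposited. The submitters' processing notes name cutadapt and HISAT2 2.0.5. No source used here states the counting program, its use of strand or the build of the coordinates.

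Groups came from the genotype in the labels. The main test was edgeR 4.0.16 (R 4.3.3), quasi-likelihood, on deposited counts, with TMM scaling and the default expression filter (10519 of 21899 genes removed, 11380 tested). Benjamini-Hochberg adjustment ran over all tested genes, with a threshold of 0.05. SE is the log2 fold change over the square root of F, and intervals are at 95%. CPM is TMM-scaled. Ratios used exact permutation over 70 assignments.

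The text names the 10 members, P2rx4, Txn1 and, per list, up to 4 called genes with the smallest p; further genes were named after their values were seen. Members, lists and rules were chosen with earlier results of these data known. Alternatives were DESeq2 1.42.0, library size alone, no filter, 1 CPM in 4 libraries, robust empirical Bayes, limma 3.58.1 on log2(FPKM + 1) or log2(FPKM + 0.1) at FPKM 0.5 or more in 4 libraries, a block on the replicate number, and leaving out single libraries. In simulated counts for 11245 genes of this comparison, 45.0% of 2-fold and 93.9% of 4-fold changes were called, with 13 false calls. A far smaller share of genes was changed there than the 9.27% that rose and 10.6% that fell here. These rates therefore do not give the share of real changes that the test found.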

Additional observations from a re-analysis of the deposited data

Results flagged for a closer look

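Within groups of 4, a library was marked where its gap to the nearest other library exceeded Dixon's 95% critical share of the group's range, which chance gives in about 1 of 20 groups. Of 70 groups examined over the 10 members, the 22 named pathway genes and the 3 ratios, 5 were marked, none of them in a member or a ratio. Wild type 3 stood above the other wild-type libraries for 3 genes. It held 8.51 CPM of Bach2 against 5.06 to 5.45, 98.5 CPM of Fbxw11 against 65.997 to 69.956, and 198.1 CPM of Slc2a2 against 128.1 to 137.4. Chac1 was marked in both groups, with 28.8 CPM in deficient 2 against 15.6 to 17.7 in the other deficient libraries and 51.0 CPM in wild type 2 against 28.8 to 31.1.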

How the results depend on the processing

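Osgin1 (-2.68 to -2.01), Hmox1 (-1.73 to -1.21) and Txnip (-2.09 to -1.61) passed under all 16 alternatives, with adjusted p up to 0.0209, 0.0388 and 0.0173. Members lower were 3 to 4 and members higher 0 to 1 with a library left out. Genes called overall ran from 982 (without wild type 3) to 2388 with a library left out, pathway genes lower from 9 to 21 and higher from 0 to 7. Pathway genes higher were 7 with library size alone and 7 in limma with either pseudocount; library size alone moved the median of all genes by 0.144. The Gclc estimate of -0.03 ran from -0.30 to 0.15 with a library left out and turned positive with library size alone (0.12), no filter (0.0073), limma (0.024 with pseudocount 1, 0.023 with 0.1), and without deficient 1 (0.15), deficient 4 (0.10) or wild type 4 (0.055). With a library left out the ratio differences ran from -0.43 to -0.13 for Gclm to Gclc, -0.17 to 0.14 for Nfe2l2 to Keap1, which turned positive without deficient 3 (0.14) and wild type 2 (0.056), and -2.24 to -1.78 for Txnip to Txn1. The cause of these changes was not tested. Replicate numbers did not pair the libraries, since correlations of same-numbered deviations were 0.132, -0.114, 0.0737 and -0.105. With the replicate block 1768 genes were called, 3 members lower and 0 higher, and 16 pathway genes lower and 4 higher. This block also ended the calls of Mafk, Gpx1, Cbr1, Gstm1 and Nos2. All of these but Mafk were also not called in limma on log2(FPKM + 0.1). Pairing cannot move the ratio differences (-0.26, -0.03 and -1.99), and the paired exact test gave adjusted p = 0.75, 0.875 and 0.375. With 4 pairs that test cannot reach 0.05 whatever the data, so it cannot show whether pairing matters for the Txnip to Txn1 ratio. Of 22 named pathway genes, 13 lost their call under at least 1 alternative and 0 changed sign. At these depths Nqo1, with 36 to 77 reads, is the least precisely counted member.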

Other observations

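Hmox2, Fth1, Ftl1 and Sod2 had estimates between -0.02 and 0.16. They were picked after their values were seen, from lists in which other genes fell (Fech, Cat and 4 of the 21 other NRF2 targets tested). Hmox2, the constitutive haem oxygenase, averaged 30.5 ± 3.52 CPM among deficient against 29.2 ± 1.87 CPM among wild-type livers (SD, n = 4), with a log2 fold change of 0.06 and a 95% interval from -0.24 to 0.37. Fth1, ferritin heavy chain, which stores the iron that haem breakdown releases, was at 2164 ± 258 and 2190 ± 163 CPM (log2 fold change -0.02, interval -0.34 to 0.31). Ftl1, ferritin light chain, was at 1061 ± 134 and 952 ± 133 CPM (0.16, interval -0.20 to 0.51). Sod2, mitochondrial superoxide dismutase, was at 727 ± 48.9 and 684 ± 85.1 CPM (0.09, interval -0.24 to 0.42). None of the 4 passed in edgeR (adjusted p = 0.781, 0.95, 0.534 and 0.71), and changes within these intervals were not detectable here.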
